A study of Mus musculus with 4 samples.

Results

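The genes described here are 10 transcription factor genes known as neural crest specifiers: Sox8, Sox9, Sox10, Pax3, Pax7, Tfap2a, Tfap2b, Snai1, Snai2 and Ets1. They were chosen by symbol, each was measured by 1 probe set naming that gene alone, and they are 10 of 22180 genes with such a probe set. RNA came from whole retinal aggregates of mouse embryonic stem cells, hybridised to 4 arrays, 2 of aggregates at day 7 and 2 at day 4 of retinal differentiation in a medium with matrigel. The cells of both days were the same wild-type line, of 129/Ola origin and derived from EB5, with GFP knocked in at Rx (Rax), a gene of the eye field. The labels name no treatment that differs between the days. They leave unsaid if replicates came from separate cultures, and p-values here cover only a spread among samples that may be technical.

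The neural crest forms at the border between the neural plate and the surface ectoderm, where Wnt, BMP and FGF signals meet. Border genes such as Pax3, Pax7 and the AP-2 genes Tfap2a and Tfap2b are followed by the specifiers Snai1, Snai2, Ets1 and the SoxE genes Sox8, Sox9 and Sox10, after which the cells lose epithelial contacts, migrate, and form peripheral neurons and glia, melanocytes and much of the face. The retina itself comes from the neural plate, while crest cells supply the mesenchyme around the eye. Several of these genes are also used elsewhere, Sox9 in neural progenitors, retina and cartilage, Pax3 and Pax7 in the dorsal neural tube, and Ets1 in blood vessels.

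The specifiers were higher at day 7 or not called. None (0) was called lower, which for 10 genes is close to the 4.33% of all genes called lower. The test was limma on the deposited log2 signals with Benjamini-Hochberg adjustment over all 22180 genes, and a gene was called at an adjusted p under 0.05. Tfap2b, Pax3, Sox9, Sox10 and Snai2 rose, which is 5 of 10 members, against 6.15% of all genes called higher at day 7. The members were chosen with earlier results of these data known, so this comparison may not be independent of them. The members lay between percentiles 47.0 and 72.5 of level, while the 6.15% also covers dimmer genes. With genes under the 50th level percentile left out, 2572 genes were called in either direction among fewer tested, against 2324 over all genes. The share called among genes of like level was not computed. Pax7, Tfap2a, Sox8, Ets1 and Snai1 were not called. Both day 7 arrays read above both day 4 arrays for all 10 members, and 25.6% of all genes had this order (50.8% had days that did not overlap in either direction). The median day 7 minus day 4 difference in log2 signal was 1.49 over the members and 0.00 over all genes. A difference of 1 is 2-fold in normalised signal. In whole aggregates, fewer cells of a type and less RNA per cell cannot be told apart.

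**Figure D1:**
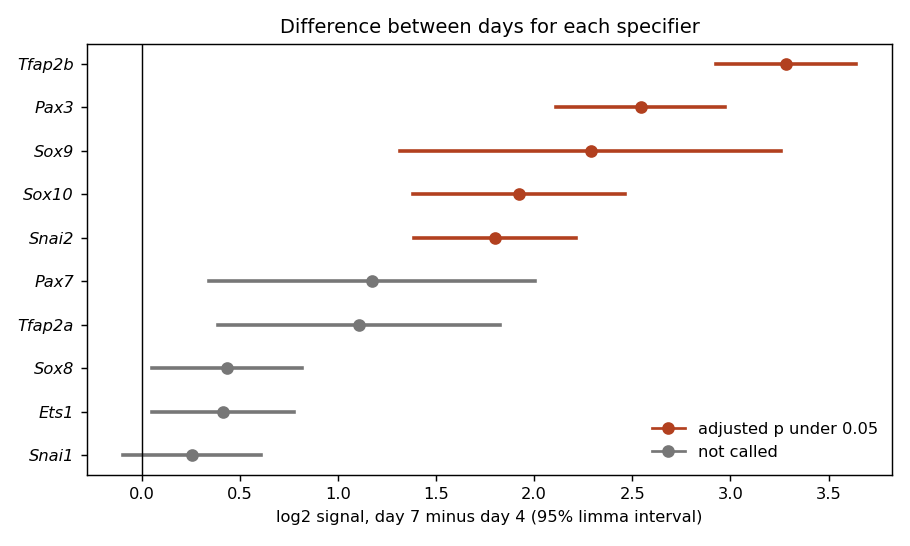
Day 7 minus day 4 difference in log2 signal for each specifier (points) with limma's 95% interval (bars), from 2 arrays per day, with called genes in red and the others in grey. Tfap2b stands highest at 3.28 and Snai1 lowest at 0.26, and the intervals of Sox9 and Pax7 are the widest.

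Tfap2b, which encodes an AP-2 factor of the border and of early crest, had the largest difference among the members. Its log2 signal was 8.09 and 7.84 on the day 7 arrays, against 4.70 and 4.67 on the day 4 arrays. The days were far apart beside the distance between replicates of either day. The rise was 9.73-fold (log2 difference 3.28, SE 0.15, limma adjusted p = 9.12e-05). Its day 4 mean of 4.68 lay near 4.60, the 25th percentile of all genes, and background left in a dim signal makes a fold smaller than the change in RNA. A promoter window from the reference is shown because Tfap2b was the member with the largest difference. The gene spans chr1:19208908-19238845, so the window lies inside it and not at its outermost start. RefSeq (GRCm38.p6) places this window, 250 bases before to 50 after the start site, at chr1:19211804-19212103 on the plus strand, and the capitals mark the only match to a Sox core (ACAAT, either strand).
Tfap2b: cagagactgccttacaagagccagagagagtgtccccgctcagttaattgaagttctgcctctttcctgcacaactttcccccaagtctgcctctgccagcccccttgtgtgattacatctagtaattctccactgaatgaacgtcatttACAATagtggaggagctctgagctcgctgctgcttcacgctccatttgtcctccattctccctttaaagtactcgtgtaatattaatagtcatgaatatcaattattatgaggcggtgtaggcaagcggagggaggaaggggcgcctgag
The match begins 100 bases before the start site, and 31.0% of all 32851 promoter windows hold this motif.

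Tfap2a, the other AP-2 member and the one whose loss in mice disrupts the closure of the head and face, measured 7.14 and 7.40 at day 7, against 5.67 and 6.66 at day 4. Both day 7 arrays were higher, but the day 4 replicates lay 0.99 apart, nearly as far as the days. With a log2 difference of 1.11 (95% interval 0.39 to 1.82) it was not called (limma adjusted p = 0.0664). Without day 4 replicate 2, the higher array of that day, the adjusted p was 0.00189 and the log2 difference 1.60, and without day 4 replicate 1 they were 0.101 and 0.61.

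Pax3 encodes a paired-box factor of the border and dorsal neural tube. Its log2 signal was 7.91 and 8.28 at day 7, against 5.42 and 5.69 at day 4, so that the days were well separated and the replicates of each day close. Pax3 rose 5.83-fold (log2 difference 2.54, SE 0.18, limma adjusted p = 0.000394). Its relative Pax7, which marks the border from early on in chick embryos, measured 7.16 and 7.65 at day 7, against 5.68 and 6.79 at day 4. Here the upper day 4 array came near the lower day 7 array. Pax7 had a log2 difference of 1.17 (95% interval 0.34 to 2.00) and was not called (limma adjusted p = 0.0875). As with Tfap2a, the result turned on the day 4 array left out, with an adjusted p of 0.00342 without replicate 2 (log2 difference 1.73) and 0.171 without replicate 1 (log2 difference 0.62).

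**Figure D2:**
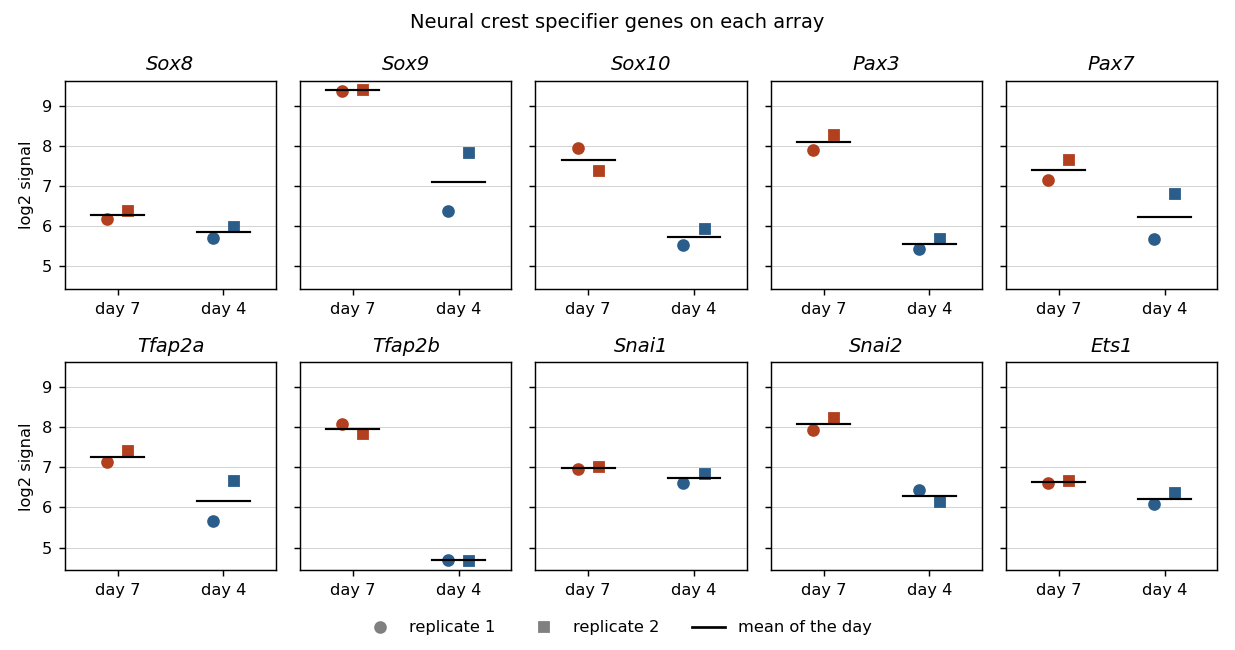
Log2 signal of each specifier on each array, with day 7 in red left of day 4 in blue, replicate 1 as circles, replicate 2 as squares and the mean of the day as a bar. The day 4 replicates of Sox9, Pax7 and Tfap2a lie 1.46, 1.11 and 0.99 apart, while those of Tfap2b lie 0.03 apart.

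The Snail genes encode zinc finger repressors of epithelial genes that act as cells leave an epithelium. Snai2 measured 7.94 and 8.23 at day 7, against 6.43 and 6.14 at day 4. The days did not overlap, and the gap between them was several times that between replicates. The rise was 3.48-fold (log2 difference 1.80, SE 0.17, limma adjusted p = 0.00119). Snai1 stayed within a narrow range, with 6.95 and 7.02 at day 7, against 6.62 and 6.84 at day 4. Although both day 7 values were the higher ones, the difference of 0.26 log2 (95% interval -0.09 to 0.61) was about as large as the distance between the day 4 arrays, and Snai1 was not called (limma adjusted p = 0.382). The Snai1 promoter is shown because it belongs to the member with the smallest difference and holds motifs of the members' own families. It lies at chr2:167537945-167538244 on the plus strand (RefSeq, GRCm38.p6).
Snai1: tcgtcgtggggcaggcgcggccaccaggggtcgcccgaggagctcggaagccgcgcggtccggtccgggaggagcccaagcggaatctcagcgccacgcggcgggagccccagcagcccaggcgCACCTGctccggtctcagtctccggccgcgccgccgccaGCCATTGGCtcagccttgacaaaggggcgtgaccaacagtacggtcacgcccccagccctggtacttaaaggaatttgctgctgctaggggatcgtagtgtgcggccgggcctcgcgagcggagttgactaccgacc
The first run of capitals is a Snail E-box (CAGGTG, here as its reverse complement) beginning 126 bases before the start site, and the second is an AP-2 motif (GCCNNNGGC) beginning 87 bases before it. Of all promoter windows, 20.2% hold the first motif and 16.6% the second.

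Promoter windows were found for 5 of the 10 members, Tfap2b, Snai1, Pax7, Sox8 and Tfap2a, the last with more than 1 start site, which makes 6 windows. Those of Tfap2b, Pax7 and Tfap2a lay inside the span of the gene and not at its outermost start. On either strand, the TCF/LEF core CTTTGA was in 0 of these 6 windows and in 16.0% of all windows. Any E-box (CANNTG, which includes the Snail E-box) was in the windows of Tfap2b, Snai1 and Sox8, once in each, and in 72.3% of all windows. Apart from the matches shown, neither the Sox core, the Snail E-box nor the AP-2 motif was in the windows of the members. A match to letters is a description and not a binding site.

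Ets1, which encodes an Ets-domain factor of cranial crest and of vessels, measured 6.60 and 6.67 at day 7, against 6.09 and 6.35 at day 4. The day 7 arrays were both higher, by a margin close to the distance between the day 4 arrays. The log2 difference of 0.41 (95% interval 0.05 to 0.77) was not called (limma adjusted p = 0.159). A further probe set names Ets1 together with another gene and was not used.

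Of the SoxE genes, Sox9 is needed for the survival of trunk crest cells and for cartilage. Its log2 signal was 9.38 on each day 7 array, against 6.37 and 7.83 on the day 4 arrays. Both day 7 arrays were higher by more than the wide distance between the day 4 arrays. Sox9 rose 4.88-fold (log2 difference 2.29, SE 0.41, limma adjusted p = 0.0144). The size of the rise depended on the day 4 array, at 8.10-fold without replicate 2 and 2.94-fold without replicate 1. The call was lost without day 7 replicate 1 (adjusted p = 0.0903) or replicate 2 (adjusted p = 0.0838), where all spread came from the day 4 arrays.

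Sox10 marks migrating crest and stays on in glia and melanocytes. It measured 7.94 and 7.37 at day 7, against 5.54 and 5.93 at day 4. The days were separated, although the day 7 replicates lay further apart than for most genes. Sox10 rose 3.79-fold (log2 difference 1.92, SE 0.23, limma adjusted p = 0.00271). Sox8, which overlaps with the other SoxE genes in function, measured 6.18 and 6.38 at day 7, against 5.71 and 5.98 at day 4. Its difference of 0.43 log2 (95% interval 0.05 to 0.82) was not called (limma adjusted p = 0.162).

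In each family with more than 1 member at least 1 gene was called and at least 1 was not, so the changes of relatives were set against each other on the same arrays. The log2 gap between a pair on an array was taken, and only its change between days is given, because levels of different probe sets are not comparable. At day 7 relative to day 4 the gap had shifted by 2.18 log2 towards Tfap2b over Tfap2a, by 1.37 towards Pax3 over Pax7 and by 1.54 towards Snai2 over Snai1. Among SoxE genes the shift was 1.85 towards Sox9 over Sox8, 1.49 towards Sox10 over Sox8 and 0.37 towards Sox9 over Sox10. The days did not overlap for 5 of the 6 pairs, and overlapped for Sox9 and Sox10. Each of these 5 pairs sets a called gene against an uncalled one on the same arrays, so a shift towards the called gene was partly built in. The share of gene pairs in general whose days do not overlap was not computed. Between single arrays the shift ranged from 1.41 to 2.94 for Tfap2b over Tfap2a and from -0.46 to 1.19 for Sox9 over Sox10. In a two-sided exact permutation test each of the 5 pairs had p = 0.333, the smallest that 2 arrays against 2 can give, and Sox9 with Sox10 had p = 0.667 (0.4 and 0.667 adjusted over the 6 pairs). That test cannot reach a threshold of 0.05 with 2 arrays a day, whatever the values, and no other test of the gaps was made.

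**Figure D3:**
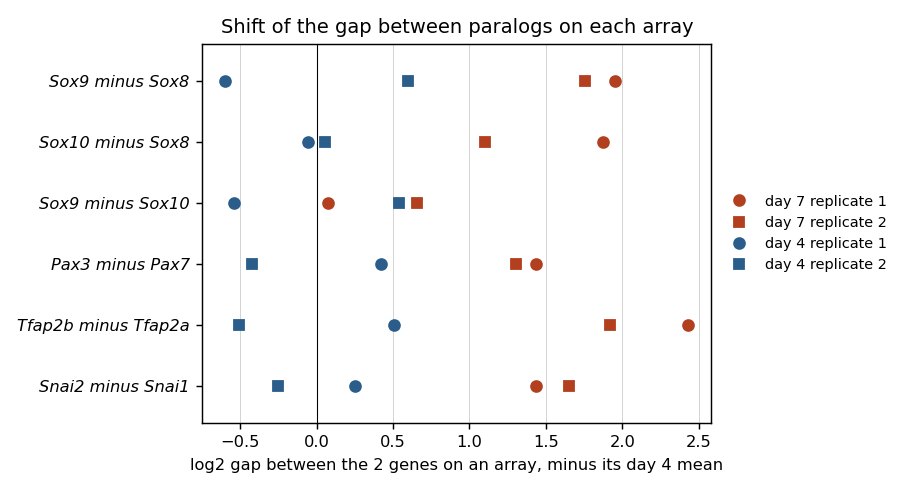
Shift of the log2 gap between paired specifiers on each array, with the mean day 4 gap of each pair set to 0, for day 7 (red) and day 4 (blue), circles for replicate 1 and squares for replicate 2. The day 7 arrays lie to the right of the day 4 arrays for 5 of 6 pairs and overlap with them for Sox9 minus Sox10.

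The day 4 replicates differed for part of the set. Day 4 replicate 2 read above replicate 1 by 1.46 log2 for Sox9, 1.11 for Pax7 and 0.99 for Tfap2a. Gaps at least this large were seen in 0.0766%, 0.361% and 0.726% of all genes, so these were among the least even genes at day 4. Over the set, 8 of 10 members had the higher value in day 4 replicate 2 (median gap 0.27), against 51.5% of all genes (median gap 0.01). Tfap2b (-0.03) and Snai2 (-0.29) were the exceptions. At day 7 replicate 2 was likewise the higher array for 8 of 10 members, with a smaller median gap of 0.13, against 47.3% of all genes. At day 7 no member had a gap above 0.9, and the widest were those of Sox10, at -0.58 for replicate 2 minus replicate 1, and Pax7, at 0.50. Day 4 replicate 2 was also the higher one in the lists described below for chondrocyte genes (median gap 0.57), crest-derived mesenchyme (0.43), retina and eye field (0.43) and crest-inducing signals (0.36). The part of these differences in the results for Sox9, Pax7 and Tfap2a was not tested.

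**Figure D4:**
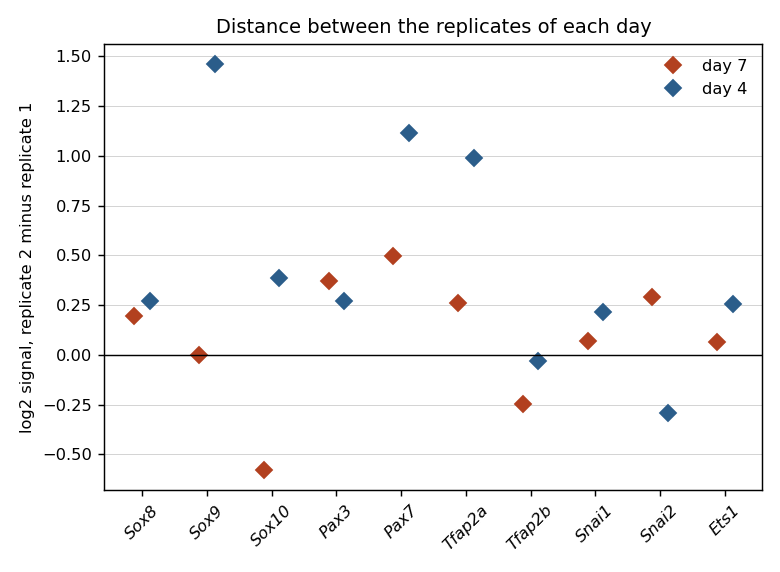
Log2 signal of replicate 2 minus replicate 1 for each specifier, for day 7 (red) and day 4 (blue). Sox9, Pax7 and Tfap2a stand at 1.46, 1.11 and 0.99 at day 4, while at day 7 the members lie between -0.58 and 0.50.

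Other genes of the crest programme were taken from lists that hold none of the 10 members. Counts in all lists below stand against 6.15% of all genes called higher and 4.33% called lower at day 7. In a short list, 1 call is near these shares. Of 12 neural plate border genes on the array, 3 rose and 2 fell, while 7 were not called (5 rose with the replicate block). The border and neural gene Zic1 rose 25.3-fold (limma adjusted p = 3.83e-05), and Tfap2c, an AP-2 gene outside the set, rose 5.32-fold, with 8.53 and 8.35 at day 7 against 6.06 and 6.01 at day 4. Gata2, of the non-neural side of the border, had a log2 difference of 1.08 (limma adjusted p = 0.0375, and 0.152 without day 7 replicate 2 and 0.0962 without day 4 replicate 1). The forkhead gene Foxi3, of the early placode region, was 9.02-fold lower at day 7 and Zic2 1.92-fold lower. Zic2 had an adjusted p of 0.108 if day 7 replicate 1 was left out and 0.0507 if replicate 2 was. The border genes Msx2, Dlx3 and Dlx5 were not called, and the median difference of the list was -0.01.

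Among 16 other crest regulators 7 rose, 2 fell and 7 were not called, with a median difference of 0.61. The orphan nuclear receptor genes Nr2f2 and Nr2f1, used in cranial crest and forebrain alike, rose 18.5-fold and 10.7-fold, and the SoxD gene Sox6 rose 9.49-fold. Twist1, a mesenchymal regulator of cranial crest chosen for mention after its value was seen, rose 2.86-fold (log2 difference 1.52, limma adjusted p = 0.00297). Foxd3, a crest specifier that also serves pluripotent cells, went the other way. It measured 6.94 and 6.55 at day 7, against 8.05 and 7.54 at day 4, a log2 difference of -1.05 (limma adjusted p = 0.0253). That call was lost without day 7 replicate 1 (adjusted p = 0.0666), day 7 replicate 2 (0.171) or day 4 replicate 1 (0.0638). Csrnp1, also lower at day 7 (log2 difference -0.73, limma adjusted p = 0.0194), was not called without the same arrays (adjusted p = 0.132, 0.136 and 0.0587).

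Of 14 crest-inducing signal genes 6 rose, 8 were not called and 0 fell, with a median difference of 0.86. Bmp7 rose 4.90-fold, the Notch ligand genes Jag1 and Dll1 4.13-fold and 3.67-fold. For Dll1 the mean of its probe sets gave a log2 difference of 1.22 in place of 1.88. The other genes that rose were the roof plate signal genes Gdf7, 3.47-fold (limma adjusted p = 0.00172), and Wnt1, 3.20-fold (0.0172), and the receptor gene Notch1, 1.75-fold (0.0248). Wnt1 was not called without day 7 replicate 2 (adjusted p = 0.117). Notch1 was not called in 3 of the 4 fits without 1 array, with adjusted p = 0.0705 if day 4 replicate 1 was left out, and 0.180 or 0.110 if day 7 replicate 1 or 2 was. The list also held Wnt3a and Wnt3, with log2 differences of 1.23 and 0.90 that were not called (limma adjusted p = 0.0632 and 0.0728), and Bmp4 and Fgf8, at 0.27 and 0.18 (0.635 and 0.712).

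The genes of delamination and migration are those through which crest cells exchange their adhesion molecules and respond to cues. Of 17 adhesion and matrix genes 8 rose, 1 fell and 8 were not called, with a median difference of 0.67. Cdh11, Cdh2 and Cdh6, cadherins of mesenchymal, neural and premigratory crest cells, rose 6.19-fold, 5.78-fold and 4.14-fold. The gene that fell was the E-cadherin gene Cdh1, 4.69-fold lower at day 7 (limma adjusted p = 0.000575). It measured 9.03 and 9.44 at day 7, against 11.51 and 11.41 at day 4. Cdh1 is a known target of Snail repressors and is also expressed by epiblast cells. The part of either in its fall was not tested. Without day 7 replicate 1, 5 genes of this list were called higher. Of 15 receptors of migrating crest 10 rose, 5 were not called and 0 fell, with a median difference of 1.11. Robo2, a receptor for Slit cues, rose 11.9-fold, the chemokine receptor gene Cxcr4 5.64-fold, and the endothelin receptor gene Ednrb 4.66-fold. Erbb3, Ret and Kit, receptors of crest-derived glia, enteric neurons and melanocytes, were not called, with log2 differences of -0.34, -0.30 and 0.34 (limma adjusted p = 0.196, 0.421 and 0.233).

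**Figure D5:**
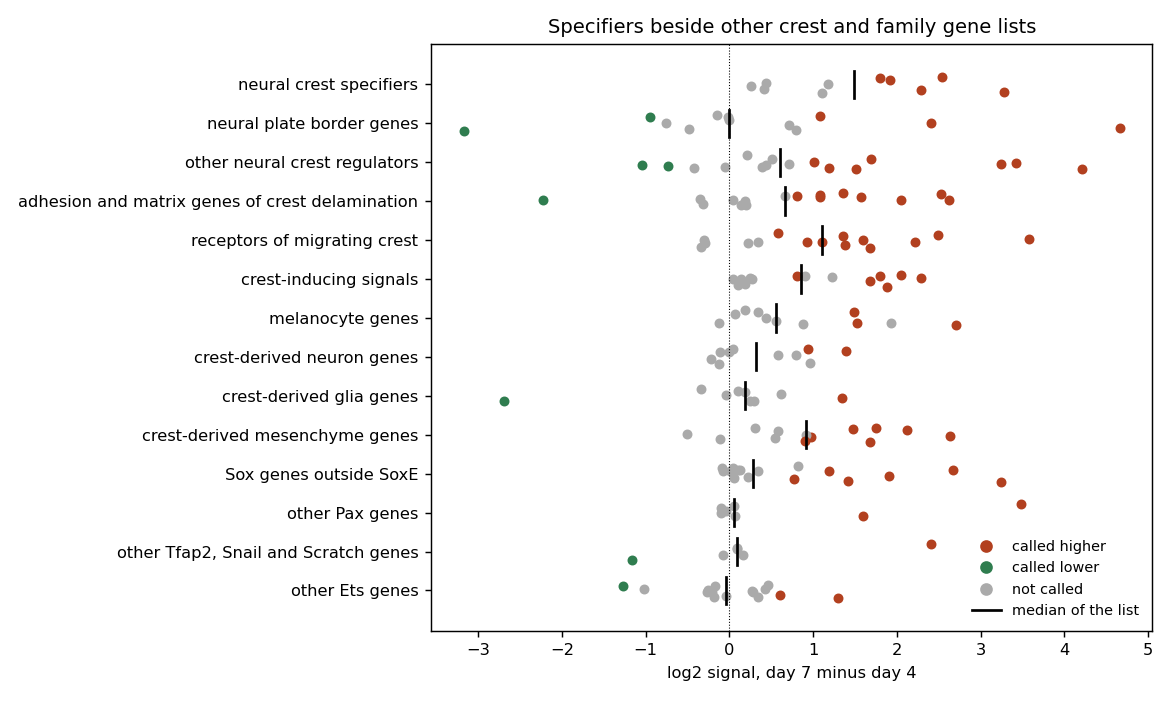
Day 7 minus day 4 difference in log2 signal for every measured gene of the specifiers and of 13 other lists, in red where called higher, green where called lower and grey where not called, with the median of each list as a black bar. The median of the specifiers is 1.49, and those of the other lists drawn lie between -0.04 for other Ets genes and 1.11 for receptors of migrating crest. Of 8 marker lists of other cell types, not drawn, retina and eye field (2.00) and roof plate and dorsal neural tube (1.80) had higher medians. The rest lay between -0.10 for endoderm and 1.34 for neural progenitors and radial glia.

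The descendants of the crest were described by further lists. Of 10 measured genes of crest-derived neurons 2 rose and 8 were not called, with a median difference of 0.31. They were Isl1 (2.63-fold, limma adjusted p = 0.0186) and Neurog1 (1.91-fold, 0.0369). Without day 7 replicate 1 neither was called (adjusted p = 0.0818 for Isl1 and 0.163 for Neurog1). Neurog1 was not called without day 7 replicate 2 (0.197) or day 4 replicate 1 (0.0711) either. With the replicate block 4 genes of this list were called higher. The noradrenergic genes Dbh, Th and Hand2 were not called, at -0.11, 0.04 and -0.13 log2. Pou4f1, Hand1 and Neurog2, also not called, had larger log2 differences of 0.97, 0.80 and 0.58 (limma adjusted p = 0.0606, 0.186 and 0.0998). The remaining uncalled genes, Gata3 and Prph, stood at -0.003 and -0.22.

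Of 9 glial genes 1 rose, 1 fell and 7 were not called, with a median difference of 0.19. Fabp7, which radial glia also express, rose 2.54-fold (limma adjusted p = 0.0155; if day 7 replicate 1 is left out 0.0946, if replicate 2 is, 0.10), and Pou3f1, which serves both Schwann cells and the epiblast, was 6.48-fold lower. In the melanocyte list 3 of 11 genes rose and 8 were not called, with a median difference of 0.56. Dct rose 6.52-fold, with 6.69 and 8.66 at day 7 against 4.88 and 5.07 at day 4 (limma adjusted p = 0.0217). Without day 7 replicate 1 the rise of Dct was 12.9-fold and without day 7 replicate 2 it was 3.29-fold. Without day 4 replicate 1 Dct was not called (adjusted p = 0.0519). Mitf rose 2.88-fold and Trpm1 2.82-fold (adjusted p = 0.00880, and 0.0737 without day 7 replicate 2). Pmel was not called at 1.93 log2 (limma adjusted p = 0.137), with 7.62 and 10.01 at day 7 against 7.22 and 6.55 at day 4. The other uncalled genes lay between -0.12 for Gpnmb and 0.88 for Oca2. Dct, Mitf and Trpm1 also mark the pigment epithelium of the retina. Day 7 replicate 2 was the higher array for 10 of the 11 genes of the list. Without day 7 replicate 1, 6 genes of this list were called higher.

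Crest-derived mesenchyme, the source of facial skeleton and of tissue around the eye, had 7 of 13 measured genes called higher, 6 not called, 0 lower and a median difference of 0.91. The homeobox genes Prrx1 and Alx1, of facial and periocular mesenchyme, rose 6.24-fold and 3.36-fold, and the forkhead gene Foxc1 4.35-fold. Prrx1 measured 8.15 and 7.98 at day 7, against 4.90 and 5.95 at day 4. Without day 7 replicate 2, 4 genes of this list were called higher, and Foxc1 had an adjusted p of 0.0554. Counts in these lists and in the set of specifiers come from the same 4 arrays and are not independent of each other.

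Markers of other cell types that use the same factors were read on the same arrays. Of 12 genes of neural progenitors and radial glia, where Sox9 is also used, 9 rose, 1 fell and 2 were not called. Without day 7 replicate 1, 5 genes of this list were called higher. The summed linear signal of that list was 20417 and 19293 at day 7, against 9689 and 9257 at day 4. Pax6, Hes5 and Sox1 led its rises (log2 differences 3.48, 2.97 and 1.90) and Slc1a3 fell (log2 difference -1.57). The mean of the probe sets of Hes5 gave a log2 difference of 1.55, which is below those of Sox1 and Vim (1.57). Of 11 genes of roof plate and dorsal neural tube, where Pax3 and Pax7 are also used, 7 rose, 4 were not called and 0 fell, and the summed signal was 4976 and 5731 at day 7, against 1749 and 1957 at day 4. Rspo3, Zic1 and Rspo1 led. Without day 4 replicate 1, 1 gene of this list was called lower. The retina and eye field genes, which define the labelled tissue, included 6 rises among 11, with 0 falls and 5 genes not called, led by Nr2e1, Pax6 and Lhx2, and their summed signal was 8169 and 9533 at day 7, against 5007 and 5871 at day 4. With the replicate block, on genes above the 50th percentile of level, with an intensity trend and with the trend and robust estimation, 1 gene of this list was called lower. It was Otx2, a head and eye homeobox gene, with a log2 difference of -0.54 (limma adjusted p = 0.0898, and 0.0132 to 0.0491 in those 4 fits). Rax, whose locus carries the reporter, measured 7.62 and 8.37 at day 7, against 6.14 and 6.82 at day 4 (limma adjusted p = 0.0210, and 0.119 without day 7 replicate 2 and 0.0520 without day 4 replicate 1). The part of these cell types in the rises of Sox9, Pax3 and Tfap2b, or in the uncalled difference of Tfap2a, was not tested.

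Of 10 chondrocyte genes 3 rose, 7 were not called and 0 fell, with a summed signal of 914 and 1045 at day 7, against 516 and 746 at day 4. The cartilage collagen genes Col11a1 and Col2a1 rose by 1.86 and 1.47 log2 and Hapln1 by 0.87, while the cartilage matrix gene Acan was not called (log2 difference -0.50). For Hapln1 the adjusted p was 0.0198, and 0.0586, 0.0574 and 0.152 without day 4 replicate 1, day 7 replicate 1 or day 7 replicate 2. Endothelial genes, where Ets1 is also used, included 4 rises among 12, with 0 falls and 8 genes not called. Fli1, Flt1 and Kdr had the largest called rises, at 2.45-fold or less. The vessel genes Pecam1, Cdh5 and Tek were not called (log2 differences -0.14, 0.95 and -0.12). Cdh5 measured 6.36 and 7.70 at day 7, against 6.17 and 5.99 at day 4, a difference as large as that of Kdr (0.94). Flt1 and Kdr were not called without day 7 replicate 2 (adjusted p = 0.0672 and 0.148), nor was Kdr without day 4 replicate 1 (0.0553) or day 4 replicate 2 (0.0505). The list had 1 rise if day 7 replicate 2 was left out and 2 if day 4 replicate 1 was. The summed signal was 959 and 1306 at day 7, against 748 and 785 at day 4.

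Surface ectoderm genes, where AP-2 factors are also used, went down or were not called. Among the 11 with a value, 3 fell, 0 rose and 8 were not called, with a median difference of 0.09. The summed signal was 2617 and 3342 at day 7, against 7002 and 6408 at day 4. The genes that fell were Cdh1, Epcam and Grhl2 (log2 differences -2.23, -2.14 and -1.99), which epiblast cells also express. The lower sum at day 7 lay mainly in these 3 genes and does not describe the rest of the list. Cdh1 alone measured 9.03 and 9.44 log2 at day 7, against 11.51 and 11.41 at day 4. The epidermal genes Krt14 and Trp63 were not called (0.09 and 0.10), and Krt5 was not analysed here. Of 11 genes of paraxial mesoderm and myotome, where Pax3, Pax7 and Snai1 are also used, 0 rose, 1 fell and 10 were not called. The one that fell was Tcf15 (log2 difference -0.98, limma adjusted p = 0.00990; if day 7 replicate 1 is left out 0.0775, if replicate 2 is, 0.0824). The summed signal was 544 and 560 at day 7, against 607 and 666 at day 4, and Tbx6, Msgn1 and Myod1 were not called (0.13, 0.07 and -0.36). Of 10 endoderm genes 1 rose, 2 fell and 7 were not called, with Sox17 at 0.77 (adjusted p = 0.0321, and 0.0920, 0.139 and 0.205 without day 4 replicate 1, day 7 replicate 1 or day 7 replicate 2), Cer1 at -2.06 and Cldn6 at -1.61 log2. The summed signal of the endoderm list was 2059 and 2925 at day 7, against 4194 and 3881 at day 4.

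Relatives of the specifiers outside the set were mixed, beside 6.15% of all genes called higher and 4.33% called lower. Among 16 Sox genes outside the SoxE group 6 rose, 10 were not called and 0 fell, led by Sox6, Sox21 (6.38-fold) and Sox1 (3.74-fold), which are genes of neural progenitors. The mean of the probe sets of Sox21 gave a log2 difference of 1.60 in place of 2.67. Of 7 other Pax genes the eye genes Pax6 (11.1-fold) and Pax2 (3.03-fold) rose and 5 were not called, with 0 lower. Pax2 had a limma adjusted p of 0.0202, and 0.108 without day 7 replicate 2 and 0.0505 without day 4 replicate 1. Of 6 other AP-2, Snail and Scratch genes Tfap2c rose, Snai3 fell (log2 difference -1.16, limma adjusted p = 0.0114; if day 7 replicate 1 is left out 0.103, if replicate 2 is, 0.0506) and 4 were not called. Of 15 other Ets genes 2 rose, 1 fell and 12 were not called. These were Fli1, Etv6 (log2 difference 0.60, limma adjusted p = 0.0454, not called without any 1 of the 4 arrays, with adjusted p between 0.0859 and 0.302) and the FGF-responsive gene Etv5 (-1.27, adjusted p = 0.00529, and 0.0578 without day 7 replicate 1).

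Across all genes, the profiles nearest to that of Tfap2b over the 4 arrays, after each gene's own mean was taken off, were those of Samd5, Npas3 and the ephrin gene Efnb1. Their root mean square distances were 0.05, 0.06 and 0.08 log2. Samd5 measured 9.01 and 8.70 at day 7, against 5.48 and 5.54 at day 4, and Efnb1 10.47 and 10.16 at day 7, against 6.97 and 7.15 at day 4. With 4 arrays such likeness describes the 2 days and little more.

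The arrays were alike in scale. Their medians ranged from 5.68 to 5.77 log2. Over all 41345 probe sets r was 0.991 for the day 7 replicates, 0.986 for the day 4 replicates and 0.972 to 0.978 across days. Over all genes 2324 were called, 10.5% of those tested, with 1364 higher and 960 lower (4.33%) at day 7.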

How the data were processed

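Total RNA of 4 samples, 2 at day 7 and 2 at day 4, was hybridised to Affymetrix gene arrays, 1 sample per array, with the day read from each title. The values the authors deposited are log2 signals of probe sets on each array. The submitters' processing notes name RMA and Partek 6.5. RMA removes background, makes the arrays' distributions equal and combines probes, which hides any shift common to most genes. Its settings are not given in the sources used here, and arrays give no count, so their number limits the precision.

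Of 41345 probe sets, 23521 named 1 gene, 1814 named several and 16010 had none listed. Where a gene had more than 1 probe set, only the brightest on average was used, leaving 22180 genes. Symbols were checked by gene identifier against RefSeq (GRCm38.p6), and 0 changed. Differences were fitted with limma 3.58.1 (lmFit and eBayes, day as the only term, 2 residual degrees of freedom) in R 4.3.3, two-sided, with Benjamini-Hochberg adjustment over 22180 genes. The fit was tested on simulated arrays. Pairs were tested with SciPy 1.17.1. The summed signal of a list is the sum of 2 to the power of the log2 signals.

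The 10 members and the lists were chosen with earlier results of these data known. Named genes were the members and, per list, up to 3 called genes with the largest rise and 3 with the largest fall. Genes named besides these, such as Twist1, Gdf7, Wnt1, Notch1, Otx2 and uncalled genes, were chosen after their values were seen. The alternatives tried were a replicate block, fits without 1 array, quantile or median scaling of the deposited values, removal of genes under the 25th or 50th level percentile, a variance prior with an intensity trend (also robust), and averaging a gene's probe sets.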

Additional observations from a re-analysis of the deposited data

How the results depend on the processing

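No difference of a specifier reversed (0 of 119 values under 12 alternatives). Between 4 and 7 members were called higher and 0 lower. Tfap2b, Pax3, Sox10 and Snai2 were called under all 12 alternatives, and Sox8, Ets1 and Snai1 under none (0). Leaving out each array in turn gave 887 to 2500 genes called, lowest without day 7 replicate 1, where 1 array stands for its day. It gave log2 differences of 1.56 to 3.02 for Sox9, 0.62 to 1.73 for Pax7 and 0.61 to 1.60 for Tfap2a. The groups share replicate numbers, but nothing ties same-numbered arrays to each other. Over all genes their deviations from the day means correlated with r = 0.186, and a fit with a replicate block called 2770 genes and 7 members. Pax7 and Tfap2a passed with the replicate block (log2 difference 1.17, adjusted p = 0.0118, and 1.11, 0.0192), after median centring of the arrays (1.22, 0.0235, and 1.15, 0.0169), with an intensity trend (1.17, 0.0420, and 1.11, 0.0323) and with the trend and robust estimation (1.17, 0.0482, and 1.11, 0.0295). Tfap2a also passed on genes above the 50th percentile of level (1.11, 0.0399). The block is no evidence that the arrays were paired. The cause of these changes was not tested, save that leaving out an array removes a sample. Of 61 other named genes 0 reversed in 722 values, and 22 lost their call in at least 1 fit, each time with an array left out. Of 504 list counts 47 moved, either by more than 1.5 times or between 0 and a count above 0.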
